A study of Mus musculus with 3 samples.

Results

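The cells described here are 161 of the 8207 cells kept from 3 single-cell RNA libraries of mouse heart. They were selected on their own transcripts. A cell was a member when the unique molecular identifiers (UMIs, each standing for 1 captured mRNA molecule) of Ace and Treml4 summed to at least 2 and Ly6c2 had fewer than 2. This is a gate for non-classical monocytes. A minority of the members carried that programme with C1q well under the macrophage level and no set of dendritic cell genes, so the cells are called Ace/Treml4-gated cells below and divided by what else they carried.

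The study compared heart macrophages at steady state with those after myocardial infarction. One library (MF_SS) held heart macrophages at steady state and a second (MF_MI) heart macrophages at day 11 after infarction, both from C57BL/6 mice with the genotype Cx3cr1CreER-YFP/+:R26Td/+, a Cre and YFP knock-in at one Cx3cr1 allele with a tdTomato reporter. The third (MF_DC) held macrophages and dendritic cells at steady state from wild type C57BL/6 mice. All mice were 8 to 12 weeks old. The macrophage gate took live leukocytes (CD45+) that were CD11b+ and had low to high CD64, and the dendritic cell gate took CD64- leukocytes positive for CD11c whose surface MHC class II was intermediate or high. Tissue of all 3 libraries was digested with enzymes in the presence of flavopiridol, a transcription inhibitor, and loaded on the Chromium 3' platform. The labels do not give the number of animals in a library or a tamoxifen scheme, and each group is 1 library. Every interval below is therefore an exact 95% interval for counting error alone, and no difference was tested across animals.

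Non-classical monocytes are blood monocytes that crawl along the inner wall of small vessels, clear debris there and depend on the transcription factor Nr4a1. They express little Ly6C and Ccr2, and high Cx3cr1, the fractalkine receptor. Ace encodes angiotensin-converting enzyme, which endothelial cells also make. Treml4 encodes an innate immune receptor that cross-presenting type 1 conventional dendritic cells (cDC1) express too, and Spn encodes CD43, a sialomucin of the leukocyte surface that T cells share. Macrophages of the heart are known for C1q, the first component of complement, and also express Cx3cr1. A monocyte marker read in a heart macrophage sort therefore has to be read beside C1q and beside dendritic cell genes.

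In the mm10 annotation (GENCODE vM21) Ace lies on chromosome 11 from 105967945 to 105989964 on the plus strand, Treml4 on chromosome 17 from 48264295 to 48275360 on the plus strand, and Ly6c2 on chromosome 15 from 75108158 to 75111970 on the minus strand. Spn lies on chromosome 7 from 127132232 to 127137823 and Cx3cr1 on chromosome 9 from 119901616 to 120069879, both on the minus strand. All 5 are protein-coding, and the 3' kit reads the end of their transcripts.

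The gate held 49 of 1767 cells in MF_SS (2.77%, exact Clopper-Pearson interval 2.06 to 3.65), 64 of 4673 in MF_MI (1.37%, 1.06 to 1.75) and 48 of 1767 in MF_DC (2.72%, 2.01 to 3.59). Without cells bearing dendritic cell genes, 17 of 1346 cells were members in MF_DC (1.26%, 0.737 to 2.01). The sort sets which cells could enter each library, and median depth also differed, at 10834, 8246 and 7193 UMIs per cell in MF_SS, MF_MI and MF_DC. The libraries held 23711707, 45177529 and 14388327 UMIs in all. Between 7 and 11 barcodes were shared by any 2 libraries, and no barcode was shared between members of different libraries.

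The members were of 4 kinds. C1q-low cells, 33 in all, had a share of C1qa, C1qb and C1qc UMIs under the macrophage median of their library divided by 5, and no marker of another cell type. C1q-bearing cells numbered 92 and lay above that line. A further 32 cells carried at least 2 UMIs of the dendritic cell genes Flt3, Zbtb46, Xcr1 and Clec9a, and 4 others under the C1q line carried at least 2 UMIs of defining genes of another type. C1q-bearing cells were kept as 1 kind whether or not they had such genes, which in MF_SS were neutrophil genes in 2 of them, fibroblast genes in 2, endothelial genes in 1 and B cell genes in 1, and in MF_MI fibroblast genes in 5, neutrophil genes in 3 and endothelial genes in 1. The neutrophil genes were Retnlg, Csf3r and Cxcr2. Every neutrophil mark rested on Csf3r alone, because Retnlg and Cxcr2 had no UMI in members of MF_SS or MF_MI. It was the only mark of the 2 marked cells under the C1q line in MF_MI without dendritic cell genes. The libraries differed in their mix: MF_SS held 5 C1q-low and 42 C1q-bearing members, MF_MI 13 and 48, and MF_DC 15 and 2. C1q-bearing cells were 85.7% of members in MF_SS (72.8 to 94.1) and 75.0% in MF_MI (62.6 to 85). Dendritic-marked cells were 31 of the 48 members in MF_DC (64.6%, 49.5 to 77.8), 1 in MF_MI and 0 in MF_SS.

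The C1q-bearing members were deep as well as rich in C1q. Their median depth was 18739 UMIs in MF_SS and 12670 in MF_MI, against 4297 and 3534 in C1q-low members, a ratio of 4.36 and 3.59. Macrophage-gated cells, defined by at least 5 UMIs each of C1qa and C1qb and fewer than 2 of Ace and Treml4 together, had medians of 10691 and 8170 UMIs. The sum of the C1q-low and the macrophage medians was 14988 in MF_SS and 11704 in MF_MI. C1q-bearing members of these libraries had a median above either class alone and above that sum. The 2 C1q-bearing members of MF_DC had a median of 7976 UMIs, under the sum of 8400 there. Detected genes followed, with medians of 4111.5 and 3050 in C1q-bearing members and 1615 and 1425 in C1q-low members.

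C1q itself was near the macrophage level in the C1q-bearing members. The median C1q share of UMIs was 1.68% in MF_SS and 1.63% in MF_MI, where macrophage-gated cells had 2.06% and 2.05%. In C1q-low members it was 0.256% in MF_SS, 0.148% in MF_MI and 0.0142% in MF_DC. The line that divides the kinds lay at 0.413% in MF_SS and 0.410% in MF_MI, with the nearest C1q-low member at 0.401% and 0.247% and the nearest C1q-bearing member at 0.504% and 0.465%. A marked member of MF_MI lay between these, at 0.333%. C1qa alone had a median of 113.5 and 69.5 UMIs per C1q-bearing member, 4 and 2 per C1q-low member, and 80 and 57 per macrophage-gated cell. The C1q-low members of MF_DC had a median of 0 C1qa UMIs. Classical-monocyte-gated cells, with at least 2 UMIs each of Ly6c2 and Plac8, also mostly carried C1q: 89.7% of 39 cells in MF_SS and 65.4% of 81 in MF_MI lay above the same line.

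**Figure D1:**
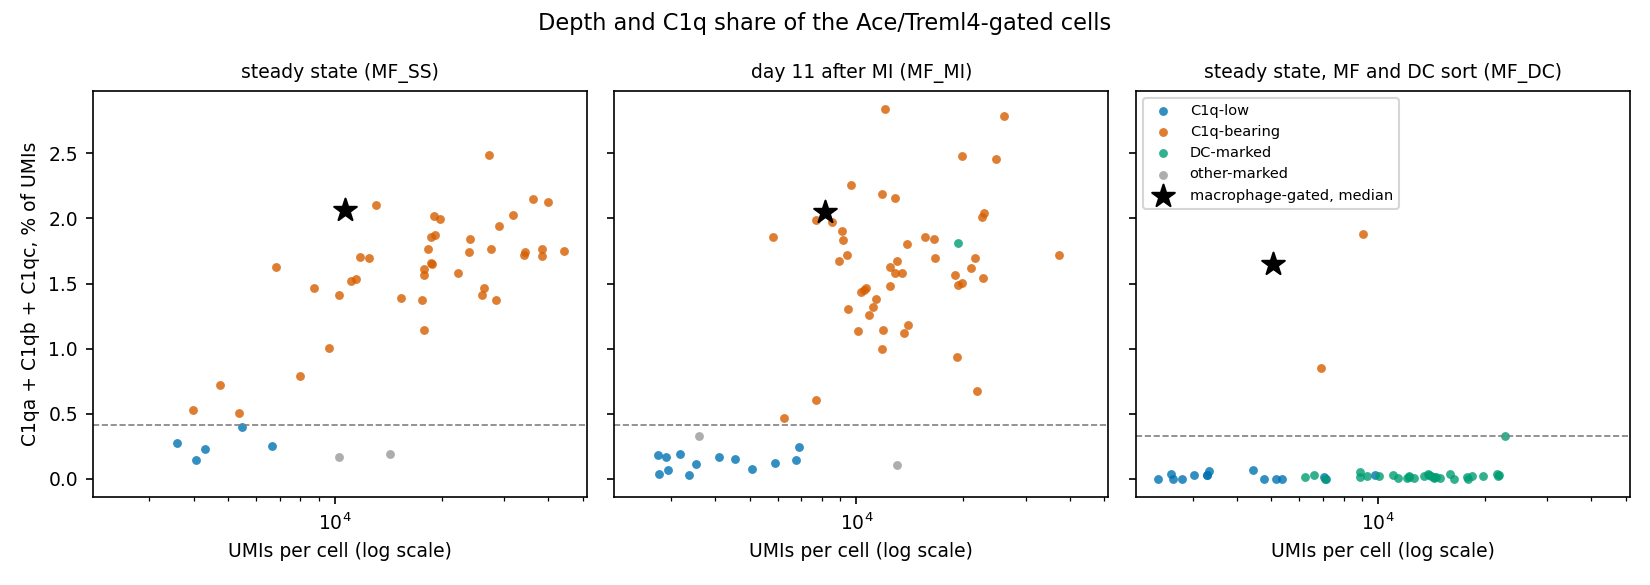
Each point is 1 Ace/Treml4-gated cell, with its total UMIs on a log x axis and its C1q share of UMIs in percent on the y axis, in 1 panel per library; colours give the 4 kinds, the star the median of macrophage-gated cells and the dashed line their median C1q share divided by 5. Most members in MF_SS and MF_MI sit high and to the right of the C1q-low members, while most in MF_DC sit near 0.

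The rule's own genes were distributed unevenly among the kinds. Both Ace and Treml4 were present in 32 of 49 members in MF_SS, 35 of 64 in MF_MI and 9 of 48 in MF_DC. Treml4 alone carried 35 of the 48 members into the gate in MF_DC, against 4 in MF_SS and 14 in MF_MI. Of those 35 cells, 27 had a UMI of Xcr1, the chemokine receptor of cDC1, and 25 had Clec9a, their receptor for dead cells. Among all C1q-low members 22 held both genes, 7 Ace alone and 4 Treml4 alone. Among all dendritic-marked members 29 of 32 held Treml4 alone.

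Cells just outside the gate were numerous. With 1 UMI of Ace and Treml4 together there were 54, 138 and 128 cells in MF_SS, MF_MI and MF_DC, and with exactly 2 there were 18, 32 and 31. Gngt2, a G protein gamma subunit gene that was high in the members, had 3.06, 4.42 and 0.664 UMIs per cell at 1 UMI and 8.56, 9.0 and 1.13 at 2 UMIs. Cells with 4 or more had 11.2, 13.3 and 7.36 Gngt2 UMIs, and cells with none 0.971, 2.40 and 0.577. On the other side of the rule, 8, 3 and 4 members had 1 Ly6c2 UMI, and 3, 3 and 1 cells were left out with exactly 2.

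Over all members, few genes stood apart from macrophages in the macrophage libraries. Levels here are CPM (counts scaled to 1000000 non-reporter UMIs, summed over the cells of a class), compared for genes with at least 20 CPM on either side. In MF_SS, 113 of 5516 genes were at least 2-fold higher in members than in macrophage-gated cells (2.05%) and 42 at least 2-fold lower (0.761%). In MF_MI the counts were 118 of 5313 (2.22%) and 52 (0.979%). In MF_DC, where most members carried dendritic cell genes, they were 378 of 4850 (7.79%) and 953 (19.6%). Of the list of non-classical monocyte genes, 14 of 29 measured were higher and 0 lower in MF_SS, 16 of 30 higher and 0 lower in MF_MI, and 8 of 26 higher and 9 lower in MF_DC. Ace and Treml4 themselves are in that list and were chosen by the rule, and a gene that reached 20 CPM in the members alone had to be higher, so these counts only describe the cells. Beyond these, Eno3, Pglyrp1 and Itgal were at least 2-fold higher than in both macrophage-gated and classical-monocyte-gated cells of every library.

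The C1q-low members carried the non-classical monocyte genes most clearly. The UMIs of 8 genes that the gate did not use (Spn, Pglyrp1, Eno3, Itgal, Cd300e, Adgre4, Gngt2 and Ear2) summed to a median of 22 per cell in MF_SS (11 to 50), 20 in MF_MI (7 to 37) and 19 in MF_DC (0 to 58). Macrophage-gated cells had medians of 1, 2 and 1 and classical-monocyte-gated cells 5, 5 and 2, although both were deeper. All 5 C1q-low members in MF_SS, all 13 in MF_MI and 13 of 15 in MF_DC had at least 5 such UMIs, as did 11.7%, 23% and 11.1% of macrophage-gated cells. The other two C1q-low cells of MF_DC had none of the 8 genes, entered the gate through Treml4 alone and carried Irf8 and H2-Aa, so the label did not hold for them.

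**Figure D2:**
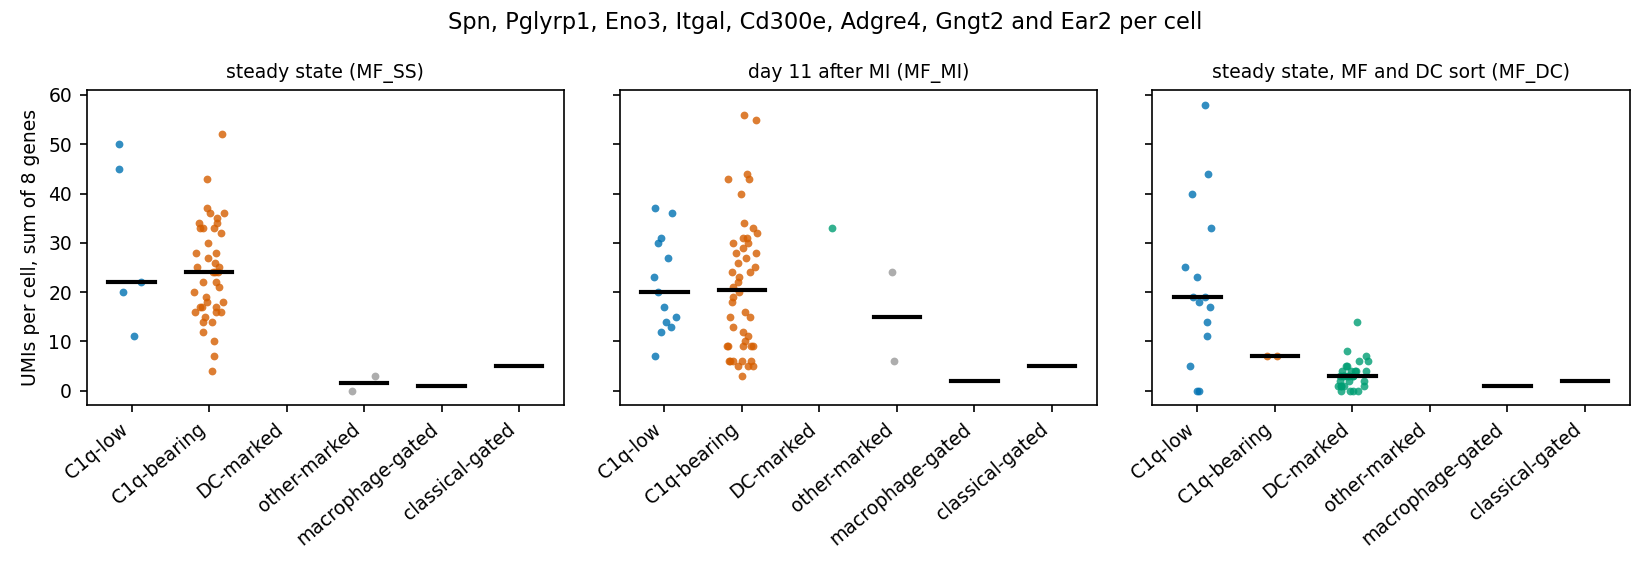
Each point is 1 member and shows the sum of UMIs of Spn, Pglyrp1, Eno3, Itgal, Cd300e, Adgre4, Gngt2 and Ear2 (y axis) by kind and library (x axis), with black bars for medians and the medians of macrophage-gated and classical-monocyte-gated cells beside them. C1q-low and C1q-bearing members of MF_SS and MF_MI overlap, with medians between 20 and 24, and the dendritic-marked members of MF_DC lie near 3.

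Spn, the marker of this subset that the gate left free, was high in the C1q-low members of all 3 libraries. It stood at 249, 219 and 298 CPM in MF_SS, MF_MI and MF_DC, from 6, 12 and 20 UMIs, against 23.8, 29.5 and 12.9 CPM in macrophage-gated cells. The ratios were 10.5 (3.83 to 23), 7.42 (3.82 to 13) and 23 (13.1 to 38.8). A Spn UMI was found in 20 of the 33 cells.

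Cx3cr1 did not separate the C1q-low members from macrophages. Its level was 249, 146 and 149 CPM against 235, 232 and 207 CPM, with ratios of 1.06 (0.389 to 2.31), 0.630 (0.272 to 1.24) and 0.718 (0.343 to 1.33). These intervals rest on 6, 8 and 10 Cx3cr1 UMIs. A Cx3cr1 UMI was present in 16 of the 33 cells. In MF_SS and MF_MI one allele of this gene carried the reporter knock-in, and MF_DC was wild type.

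Gngt2 was the most abundant of the 8 genes. Its level was 2203, 2356 and 2220 CPM in C1q-low members of MF_SS, MF_MI and MF_DC, nearly equal across the 3 libraries. Macrophage-gated cells had 79.3, 252 and 101.1 CPM of Gngt2, giving ratios of 27.8 (20.7 to 36.5), 9.33 (7.78 to 11.1) and 21.9 (18.1 to 26.4). The lower Gngt2 ratio in MF_MI went with a higher level in its macrophages. After each cell was thinned to 2000 UMIs, Gngt2 was found in 5 of 5, 92.3% (64.0 to 99.8) and 86.7% (59.5 to 98.3) of C1q-low members. At the same depth it was found in 14.3%, 36.3% and 18.9% of macrophage-gated cells and in 0 of 31 dendritic-marked members of MF_DC, of which 32.3% had a Gngt2 UMI unthinned.

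Other members of the list had low levels in macrophages. Pglyrp1, a peptidoglycan recognition protein, was at 1247, 383 and 149 CPM and 476-fold (295 to 755), 218-fold (127 to 359) and 62.8-fold (23.9 to 163) above macrophage-gated cells. Eno3, a muscle-type enolase, was at 582, 402 and 477 CPM with ratios of 50.8 (27.4 to 86.8), 59.0 (36.4 to 91.0) and 53.9 (32.9 to 87.7). Itgal, the alpha chain of the integrin LFA-1 that binds ICAM-1 on endothelium, was at 457, 402 and 387 CPM with ratios of 68.3 (33.4 to 126), 58.3 (36.0 to 90.1) and 47.3 (27.6 to 79.9). Eno3 and Itgal were near one level in all 3 libraries, whereas Pglyrp1 spanned a wide range, highest in MF_SS. Cd300e, an activating receptor of monocytes, was at 125, 183 and 209 CPM from 3, 10 and 14 UMIs. Adgre4, an adhesion G protein-coupled receptor, was at 540, 329 and 343 CPM and 21.7, 33.7 and 10.6 times the macrophage level. Ear2, an eosinophil-associated ribonuclease, was at 748, 876 and 775 CPM against 15.4, 11.9 and 220 CPM in macrophages. Ear2 has close paralogues between which reads cannot always be told apart.

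Genes of regulators varied between libraries. Of 11 measured transcription factor genes, 4, 2 and 1 were at least 2-fold higher in C1q-low members than in macrophages and 2, 3 and 5 lower, at a minimum of 200 CPM on either side. Over all genes compared, 25.4%, 15.8% and 11.5% were higher and 15.7%, 12.9% and 13.9% lower. Genes that reached the minimum in C1q-low members alone were not set apart in this count. Cebpb, a transcription factor needed for the survival of non-classical monocytes, was at 1496, 1187 and 89.4 CPM in C1q-low members and 5.02, 3.56 and 2.94 times the macrophage level, so its level in MF_DC was far under that of the other two libraries in both cell classes. Nr4a1 rested on 3, 7 and 5 UMIs with ratios of 5.17, 4.48 and 2.29. Pou2f2, a lymphoid and monocyte transcription factor, had ratios of 3.57, 1.65 and 1.98. Klf2, which restrains monocyte activation, was not higher: it stood at 748, 183 and 29.8 CPM against 822, 214 and 310 CPM. Csf1r, the receptor through which these cells receive survival signals, was at 374, 712 and 358 CPM against 1122, 896 and 719 CPM in macrophages. The Csf1r ratio was 0.334 (0.152 to 0.633) in MF_SS, 0.795 (0.565 to 1.09) in MF_MI and 0.497 (0.318 to 0.741) in MF_DC, and 28 of the 33 cells had a Csf1r UMI.

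Against classical-monocyte-gated cells, the same genes were high and classical genes were mixed. Gngt2 was 12.2, 7.16 and 9.32 times their level in MF_SS, MF_MI and MF_DC, Pglyrp1 42.2, 21.7 and 16.3 times, and Itgal 16.1, 18.7 and 21.2 times. Spn was 14.6 times higher in MF_SS and 13.1 times in MF_MI, and had no UMI in the 14 classical-monocyte-gated cells of MF_DC. Plac8, which both kinds of monocyte express, was 2.96 times the classical level in MF_SS (2.38 to 3.65), 1.13 times in MF_MI (0.957 to 1.32) and 0.518 times in MF_DC (0.402 to 0.663). The classical gate required at least 2 Plac8 UMIs, so the Plac8 level of those cells was in part set by the gate. Ccr2, the receptor that brings classical monocytes into tissue, had 0 UMIs in C1q-low members of MF_SS, and was at 0.549 (0.333 to 0.854) and 0.0992 of the classical level in MF_MI and MF_DC. F13a1, coagulation factor XIII, was at 0.313 (0.135 to 0.619), 0.0705 (0.00178 to 0.396) and 0.257 (0.0487 to 0.873) of that level. Since most classical-monocyte-gated cells of MF_SS and MF_MI carried C1q, these ratios do not compare clean monocyte classes.

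**Figure D3:**
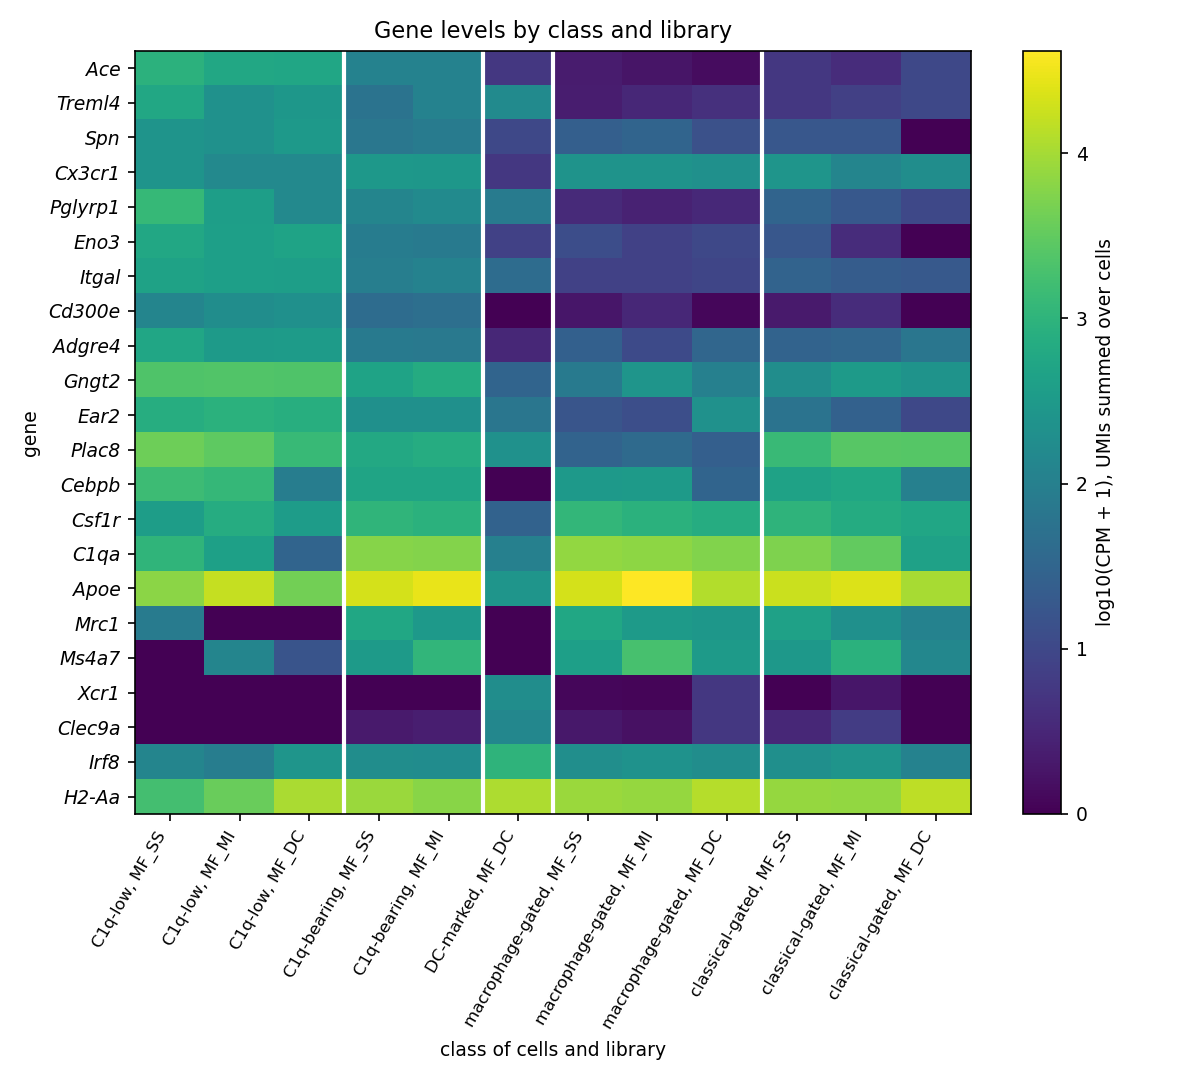
The colour of each tile is the level of a gene (rows) in a class of cells of a library (columns), as log10 of CPM plus 1. Most non-classical monocyte genes shown are high in the C1q-low columns of all 3 libraries and intermediate in the C1q-bearing columns. Cx3cr1 and Csf1r are instead higher in the C1q-bearing than in the C1q-low columns of MF_SS and MF_MI. The cDC1 genes such as Xcr1 are high in the dendritic-marked column of MF_DC.

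By gene list, C1q-low members were compared with macrophage-gated cells for genes with at least 200 CPM on either side, a higher minimum because few UMIs were summed. Of the 30 non-classical monocyte genes other than Ace and Treml4, 23 reached that minimum in MF_SS, 20 in MF_MI and 19 in MF_DC. For 15, 10 and 10 of them this was in the C1q-low members alone, Spn, Eno3 and Itgal among them, so that a higher level there was built into the comparison. Of those that reached it in macrophages, 4 of 8, 4 of 10 and 3 of 9 were at least 2-fold higher in C1q-low members and 1, 0 and 2 lower. Clec4a3, a C-type lectin, was higher in all 3 libraries, Cebpb in MF_SS and MF_MI, and Gngt2 passed the minimum in macrophages of MF_MI alone. Over all genes compared, 25.4% of 953 were higher and 15.7% lower in MF_SS, 15.8% of 854 and 12.9% in MF_MI, and 11.5% of 754 and 13.9% in MF_DC, with medians of 0.37, 0.28 and 0.21. These shares include genes that reached the minimum in C1q-low members alone. The list counts among genes at the minimum in macrophages leave such genes out, so they cannot be read against these shares. The non-classical monocyte genes that were lower were Csf1r in MF_SS and Csf1r and Klf2 in MF_DC. Of classical monocyte genes that reached the minimum in macrophages, 0 of 3, 1 of 5 and 1 of 4 were higher and 1, 2 and 2 lower. A further 6, 5 and 4 reached it in C1q-low members alone, among them Plac8 and the transmembrane gene Ifitm6.

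Genes of adhesion and crawling were in part higher in C1q-low members, mostly among genes that reached the minimum there alone. In MF_SS 8 of 13 measured genes of that list were at least 2-fold higher than in macrophage-gated cells, in MF_MI 10 of 12 and in MF_DC 4 of 11, and 0 were lower in any library. Of these higher genes 6, 6 and 4 reached 200 CPM in the C1q-low members alone. Of the list genes that reached it in macrophages, 2 of 6, 4 of 6 and 0 of 4 were higher. Over all genes at that minimum on either side, 25.4%, 15.8% and 11.5% were higher and 15.7%, 12.9% and 13.9% lower. Itga4, the integrin chain that binds VCAM-1, had ratios of 9.22, 6.29 and 2.89. Coro1a, an actin-binding protein of leukocytes, had ratios of 3.36, 3.74 and 2.17, while of the actin cytoskeleton list only 3 of 16 genes were higher in each library. Receptors of the Fc and paired immunoglobulin families went both ways, with 10 higher and 5 lower of 22 in MF_SS, 6 and 6 of 17 in MF_MI, and 7 and 4 of 17 in MF_DC. Treml4, which the rule chose, is among the higher receptors in each library. For the actin and receptor lists, genes that reached the minimum in C1q-low members alone were not set apart. Fcgr1, which encodes the CD64 used in the sort, had a UMI in 4 of 5, 5 of 13 and 0 of 15 C1q-low members.

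Macrophage genes were low in the C1q-low members. The C1q line chose these cells, so this is a description of them. By the same measure, of the core macrophage list, 13 of 16, 14 of 16 and 12 of 14 genes were at least 2-fold lower and 0 higher, and all 7, 5 and 4 measured genes of the resident macrophage list were lower. Outside C1q, Ms4a7, a membrane gene of macrophages, had 0 UMIs in MF_SS, where it was at least 3.25-fold lower, and was 14.9-fold (7.21 to 37.0) and 22.2-fold (3.99 to 879) lower in MF_MI and MF_DC. The "at least" values set a gene without UMIs at a floor of 3 UMIs summed over the class. Dab2, an endocytic adaptor, had 0, 1 and 1 UMI and was at least 6.08-fold lower in MF_SS, 25.6-fold (4.60 to 1012) in MF_MI and 31.9-fold (5.73 to 1262) in MF_DC. Apoe, the apolipoprotein of macrophages, was still found in 32 of the 33 cells, at 6443, 16178 and 4305 CPM, which was 0.310, 0.388 and 0.353 of the macrophage level in the same library. The Apoe level of the C1q-low members followed that of the macrophages around them across the libraries, and the part of RNA free in the suspension was not tested.

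Antigen presentation genes differed between the libraries. H2-Aa, an MHC class II chain, was at 1746 CPM in C1q-low members of MF_SS, 3688 in MF_MI and 10845 in MF_DC, or 0.207, 0.480 and 0.835 of the macrophage level. Of the MHC class II list, 5 of 6 measured genes were at least 2-fold lower than in macrophages in MF_SS and in MF_MI, and 0 of 6 in MF_DC. The gate for CD64- cells in MF_DC required intermediate to high MHC class II on the surface, so its part in this difference cannot be told apart from that of the animals.

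The C1q-bearing and C1q-low members held similar numbers of UMIs per cell for several non-classical monocyte genes. Gngt2 had 9.71 UMIs per C1q-bearing member and 10.6 per C1q-low member in MF_SS, a ratio of 0.916 (0.687 to 1.24), and 10.1 and 9.92 in MF_MI, a ratio of 1.01 (0.833 to 1.24). Spn had 1.38 and 1.20 UMIs per cell in MF_SS and 1.21 and 0.923 in MF_MI. The per-cell ratios of Ear2 were 1.17 and 0.835, those of Itgal 0.898 and 0.960, and those of Eno3 0.638 and 0.689. Pglyrp1 differed between the libraries, at 0.440 (0.292 to 0.683) in MF_SS and 1.47 (0.918 to 2.47) in MF_MI. The sum of the 8 genes had medians of 24 (4 to 52) and 20.5 (3 to 56) in C1q-bearing members, which overlapped the C1q-low members but also reached lower. In MF_MI 13 of the 48 C1q-bearing members entered the gate through Treml4 alone. The 14 Treml4-only members of MF_MI held 3 Spn, 0 Pglyrp1 and 2 Eno3 UMIs in all. The 35 with both genes held 56, 102 and 67. The 4 Treml4-only members of MF_SS held 1, 2 and 1. In Treml4-only members the non-classical label was thus weakly borne out.

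Macrophage UMIs per cell were many times higher in the C1q-bearing members. C1qa, which chose them, had 123 UMIs per cell against 5.0 in MF_SS and 84.0 against 1.77 in MF_MI. Macrophage-gated cells had 94.3 and 65.8. Apoe had 14 and 6.30 times as many UMIs per cell, and Csf1r 12.2 and 4.34 times. Cx3cr1 was on the macrophage side of this division, with 5.95 UMIs against 1.20 in MF_SS and 3.98 against 0.615 in MF_MI, and 3.04 and 2.22 per macrophage-gated cell. Over the lists without Ace and Treml4, the median ratio of UMIs per cell was 1.39 for 29 non-classical monocyte genes in MF_SS and 1.48 in MF_MI. For core macrophage genes it was 14 over 13 genes and 9.29 over 15. All 13 and all 15 core macrophage genes exceeded 2-fold, among them the C1q genes that chose the classes, against 9 and 11 of the non-classical monocyte genes.

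**Figure D4:**
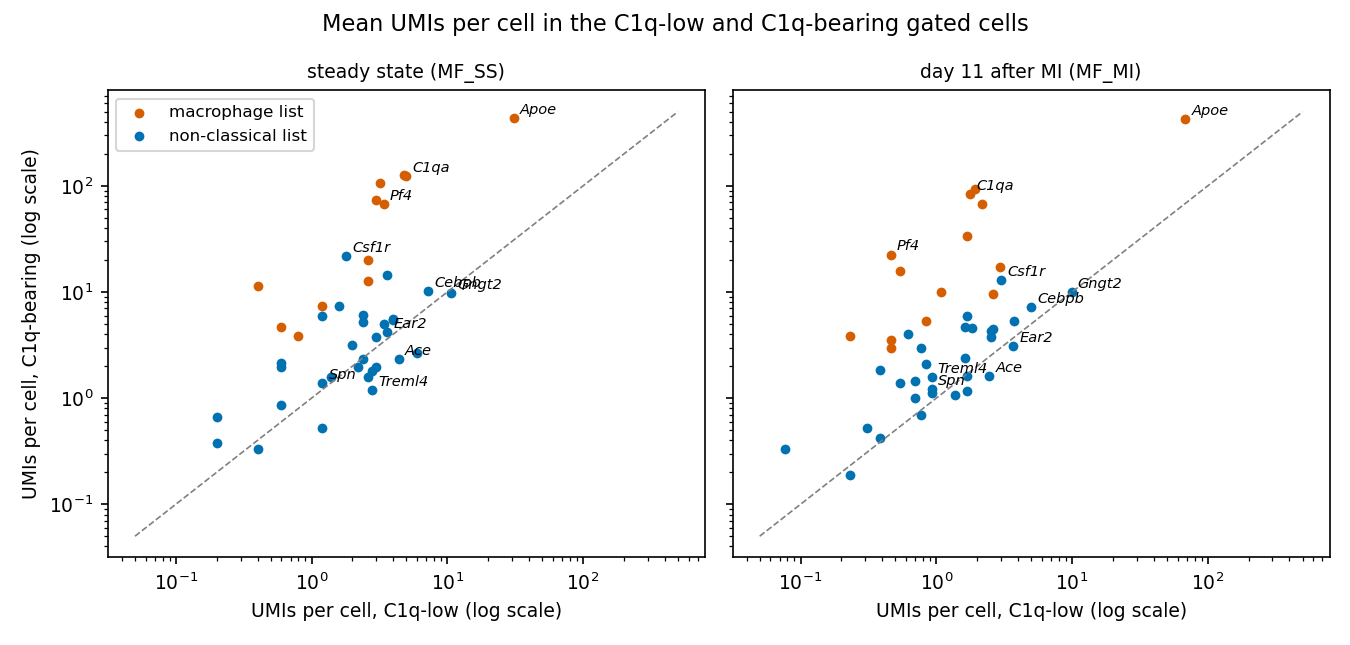
Mean UMIs per cell in C1q-low members (x axis) and C1q-bearing members (y axis) are plotted on log axes, 1 point per gene of the non-classical monocyte and core macrophage lists, for MF_SS and MF_MI; the dashed line marks equality. Ace and Treml4 are plotted but not counted, and Csf1r, which is in both lists, is plotted with the non-classical genes and counted in both. Non-classical monocyte genes have median ratios of 1.39 and 1.48, with 9 and 11 of 29 genes over 2-fold. Core macrophage genes all lie over 2-fold, with medians of 14 and 9.29, among them the C1q genes that chose the classes.

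Droplets that held 2 cells and single cells that made both sets of transcripts cannot be told apart by these values. Scrublet, which scores droplets for resemblance to summed pairs of cells, marked 7 barcodes in MF_SS, 0 in MF_MI and 2 in MF_DC at its automatic threshold. Whether it worked at that setting was not tested. Taking the highest scores at 0.8% per 1000 barcodes marked 25 of 1767, 175 of 4673 and 25 of 1767 cells. Among them were 1 of 49, 3 of 64 and 1 of 48 members, too few to set members apart from all cells.

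The dendritic-marked members of MF_DC matched cDC1 in what they carried. Of these 31 cells, 29 had a UMI of Xcr1 and 27 of Clec9a, genes that chose them together with Flt3 and Zbtb46. Genes not used to choose them were also present: Irf8, the transcription factor that cDC1 require, had a UMI in 31 of 31 cells, Batf3, its partner, in 31, Naaa, a lysosomal amidase, in 31, and Cadm1, an adhesion molecule, in 26. Of the cDC1 list, Batf3 alone was not at least 2-fold higher than in macrophage-gated cells over all members of MF_DC. Xcr1 was at 183 CPM, or 1.04 times (0.808 to 1.32) the level of the cDC-gated cells of the library, Clec9a at 1.19 times (0.887 to 1.57), and Irf8, at 1018 CPM, at 1.07 times (0.969 to 1.19). Itgae, the CD103 chain, was at 1.58 times (1.13 to 2.17) and Gcsam, a signalling adaptor, at 1.44 times (1.06 to 1.94) that level. The cDC-gated cells were chosen by Flt3 and Zbtb46 and were not limited to cDC1. A list of type 2 dendritic cell genes summed to 1134 CPM in them and 275 CPM in the dendritic-marked members. These ratios therefore do not compare the members with other cDC1 alone.

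Non-classical monocyte genes other than Treml4 were sparse in the same cells. Ace had 2 UMIs in all 31 cells, Cx3cr1 2 and Spn 4, and the Spn ratio to cDC-gated cells was 0.515 (0.135 to 1.41). Gngt2 was at 0.654 (0.338 to 1.16) of the cDC-gated level. Csf1r was at 27.5 CPM, against 719 CPM in macrophage-gated cells. Pglyrp1, high in the C1q-low members, was at 82.4 CPM in the dendritic-marked members, a ratio of 1.18 to cDC-gated cells. The sum of the 8 genes was 3 per cell (0 to 14). Treml4 was at 165 CPM in these members and 21.8 CPM in cDC-gated cells, a difference set by the gate. Taken without the gate, 106 of the 313 cells of MF_DC with at least 2 UMIs of Xcr1 and Clec9a had a Treml4 UMI (33.9%, 28.6 to 39.4) and 24 had 2 or more (7.67%, 4.97 to 11.2). The same 313 cells held 2 Ace UMIs.

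Markers of further cell types were rare among the members. At least 2 UMIs of endothelial genes were found in 2, 1 and 0 members of MF_SS, MF_MI and MF_DC, of neutrophil genes in 2, 5 and 0, of fibroblast genes in 3, 5 and 0, of B cell genes in 1, 0 and 0, and of T or NK cell genes in none. The neutrophil marks were all Csf3r UMIs. C1q-low members held Csf3r too, at 0.2 and 0.154 UMIs per cell in MF_SS and MF_MI. Cycling genes reached 2 UMIs in 9, 3 and 7 members. In the C1q-low members the endothelial list summed to 998, 475 and 477 CPM, with 9, 8 and 8 of its 12 genes at 0, and to 490, 166 and 265 CPM in macrophage-gated cells. Fabp4 and Cd36 are in this list and in the non-classical monocyte list. They had 3 and 1.6 UMIs per C1q-low member in MF_SS and 0.923 and 0.846 in MF_MI. The other endothelial genes had at most 0.2 each in the C1q-low members of these libraries. The T and NK list summed to 0, 0 and 14.9 CPM, so Spn in these cells stood beside few or no T cell transcripts.

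At day 11 the C1q-bearing members differed from those at steady state in macrophage, interferon and cell cycle genes among others. Of 5581 genes compared, 196 were at least 2-fold higher in MF_MI (3.51%) and 281 lower (5.03%), with a median log2 ratio of -0.02. In macrophage-gated cells 86 of 5321 were higher (1.62%) and 145 lower (2.73%). Over all members, 158 of 5591 were higher (2.83%) and 315 lower (5.63%), with a median of -0.04. Of a list of 15 genes of day 11 macrophages, taken from earlier results on these libraries and so no independent evidence, 12 were higher and 0 lower in C1q-bearing members, and all 15 were higher in macrophage-gated cells. Of 11 measured resident macrophage genes, 8 were lower and 0 higher, and in macrophage-gated cells 11 of 12 were lower.

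Spp1, which encodes osteopontin, stood at 273 CPM in C1q-bearing members of MF_MI and 28.8 in those of MF_SS, a ratio of 9.49 (6.23 to 15.0), with a UMI in 40 of 48 cells. In macrophage-gated cells the Spp1 ratio was 10.6. Fabp5, a fatty acid binding protein, was 7.06-fold higher (5.13 to 9.93), Clec4d, a C-type lectin receptor, 8.03-fold (4.64 to 14.9), Trem2, a lipid-sensing receptor, 3.01-fold, and Ms4a7 3.23-fold. In macrophage-gated cells the ratios were 5.62, 9.61, 3.26 and 4.68. Arg1, arginase 1, had 63 UMIs at day 11 and 0 at steady state, at least 26.1-fold higher, but 55.6% of them were in 1 cell. Fn1, fibronectin, was 61.8-fold higher (26.1 to 192), with 46.6% of its UMIs in 1 cell. The C1q-low members of MF_MI held 3 Fn1 UMIs and 2 Spp1 UMIs, and those of MF_SS 0 of both. Among all low-C1q members, marked ones included, the log2 ratio of Fn1 was -1.72 and that of Spp1 0.45. The steady-state Fn1 UMIs of that set were all in the 2 cells of MF_SS marked for another type. In those cells the fibroblast list summed to 20148 CPM.

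Resident macrophage genes were lower by similar factors as in macrophages. In C1q-bearing members Lyve1, a hyaluronan receptor, was at 0.181 of the steady-state level, Folr2, a folate receptor, at 0.228, Timd4, a receptor for dying cells, at 0.111, and Cbr2, a carbonyl reductase, at 0.223. Macrophage-gated cells had 0.142, 0.25, 0.128 and 0.257. Mgl2, a galactose lectin, was at 0.151 and Retnla, a gene of alternative activation, at 0.137 (0.0929 to 0.195), although 82.4% of the Retnla UMIs at day 11 came from 1 cell.

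Few non-classical monocyte genes passed 2-fold in the same cells. Of 30 measured, 2 had a ratio of 0.5 or less and none reached 2. The 30 include Ace and Treml4, which the same rule chose in both libraries. The median log2 ratio was 0.15. The share of the 30 that was lower is near the 5.03% of all genes compared. Those lower were Cd36, a scavenger receptor, at 0.401 and Klf2 at 0.288 (0.238 to 0.346), and macrophage-gated cells had 0.278 and 0.260 for them. Ear2 had a ratio of 1.04 (0.829 to 1.30), Eno3 0.927 (0.644 to 1.33), Spn 1.24 (0.848 to 1.82), Pglyrp1 1.28 (0.973 to 1.67) and Plac8 1.20 (1.06 to 1.36). Gngt2 was 1.47 times higher (1.29 to 1.68), in cells whose library also had 3.18 times as much Gngt2 in macrophages.

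The C1q-low members allowed few such comparisons, with 5 cells in MF_SS and 13 in MF_MI. Gngt2 had a day 11 to steady state ratio of 1.07 (0.771 to 1.5), Ear2 1.17 (0.669 to 2.14), Itgal 0.879 (0.408 to 2.01), Eno3 0.690 (0.338 to 1.46) and Spn 0.879 (0.305 to 2.85). The intervals of these 5 genes all included 1. Pglyrp1 was lower at day 11 than in MF_SS, at 0.307 (0.167 to 0.555), as were Klf2, at 0.244 (0.101 to 0.558), and Plac8, at 0.737 (0.569 to 0.959). In the C1q-low members of MF_DC, also at steady state, the levels of Pglyrp1 and Klf2 given above were under those of day 11. The direction of both genes thus depended on the steady-state library taken. Apoe was higher, at 2.51 (2.11 to 3.0), beside 2.01 in macrophage-gated cells and 1.40 in C1q-bearing members.

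**Figure D5:**
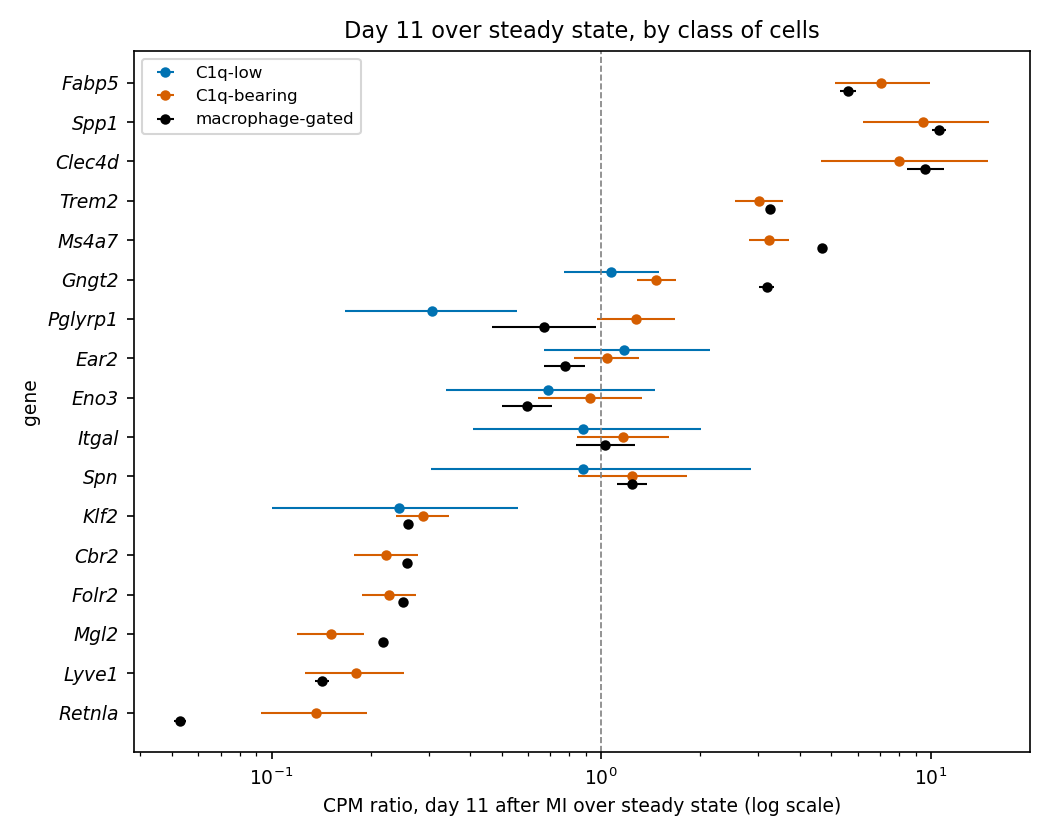
Points give the ratio of CPM at day 11 (MF_MI) to steady state (MF_SS) on a log axis for named genes, with exact 95% intervals for counting error, in C1q-low members (genes with at least 6 UMIs in both libraries), C1q-bearing members and macrophage-gated cells. Spp1 and Fabp5 lie well above 1 and Lyve1 and Folr2 well below it in C1q-bearing members and macrophages alike, while non-classical monocyte genes such as Ear2 and Spn lie near 1.

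Interferon and cell cycle genes had other counts in C1q-bearing members than in macrophages. Of 20 measured interferon response genes 6 were at least 2-fold higher at day 11 (Cmpk2, Cxcl10, Ifit1, Ifit2, Ifit3 and Rsad2) and 1 was lower. The median log2 ratio was 0.27, whereas 0 of 16 were higher in macrophage-gated cells, with a median of -0.28. Rsad2, an antiviral enzyme, was 4.11-fold higher (2.32 to 7.71) in C1q-bearing members and at 1.16 in macrophages. Cxcl10, a chemokine, was 4.28-fold higher, with 59.7% of its UMIs in 1 cell, and in members under 0.5 of the macrophage C1q share its log2 ratio was -3.10. Of 15 measured cell cycle genes, 11 were lower in C1q-bearing members and 0 higher, with a median of -1.73, and 0 of 17 passed 2-fold in macrophage-gated cells, with a median of -0.58. Top2a, a topoisomerase of dividing cells, had 6 UMIs at day 11 and 52 at steady state, and 3 members at day 11 and 9 at steady state carried at least 2 UMIs of Mki67 and Top2a. Over all genes compared, 3.51% were higher and 5.03% lower in C1q-bearing members, and 1.62% and 2.73% in macrophage-gated cells. With 1 library per time and few cycling members, the differences between the classes in interferon and cell cycle genes were not tested.

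The reporters gave little on the C1q-low members. EYFP, driven from the Cx3cr1 locus, had a UMI in 53.1% of members in MF_SS (38.3 to 67.5) and 28.1% in MF_MI (17.6 to 40.8), against 38.7% and 25.3% of macrophage-gated cells. In CPM it was 51.8 and 30.01 in C1q-bearing members and 47.0 and 35.4 in macrophages. The 5 and 13 C1q-low members had 0 EYFP UMIs, and 3 UMIs would have been 124.7 and 54.8 CPM there, so a level like that of macrophages was not detectable at this depth.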

How the data were processed

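Chromium 3' v2 libraries of sorted mouse heart cells were analysed, 3 in all and 1 per group. The deposited values are whole-number UMI counts per gene and barcode (27998 genes shared, with 3 reporter entries), made with Cell Ranger and STAR on mm10 per the submitters' processing notes. For these tools, versions: not given in the sources used here.

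Cells with at least 500 genes and at most 10% mitochondrial UMIs were kept, and the gates are those given with the results. cDC-gated cells had at least 2 UMIs of Flt3 and Zbtb46 and under 5 of C1qa, and not the other gates. Counts were summed over the cells of a class and expressed as CPM. Ratios have exact conditional binomial intervals and shares exact Clopper-Pearson ones, both at 95% and for counting error only. A gene was counted as higher or lower from 2-fold, whatever its interval. No doublet was removed in the main values. Genes were named if they were markers or members of 35 gene lists (436 of 440 symbols found), or among those with the largest ratios at 50 CPM or more in every library. The members and lists were chosen with earlier results of these data known. The 200 CPM minimum for C1q-low cells, the division into 4 kinds and the 8 genes summed per cell were chosen after values had been seen. Work was done in Python 3.11.15 with NumPy 2.4.6, SciPy 1.17.1, pandas 2.3.3 and Scanpy 1.11.5, and the ratio step was tested on simulated data. The 17 alternatives changed the gate, the filters, the scaling and the comparison class.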

Additional observations from a re-analysis of the deposited data

How the results depend on the processing

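The reported values were 113, 118 and 378 genes higher and 42, 52 and 953 lower than in macrophages (MF_SS, MF_MI, MF_DC), 158 higher and 315 lower at day 11, and shares of 2.77%, 1.37% and 2.72%. Only values that moved by over 1.5 times, or shares outside their interval, are given. With at least 3 UMIs of Ace and Treml4, 235 (MF_MI) and 666 (MF_DC) were higher, 86 (MF_SS) and 188 (MF_MI) lower, 302 and 506 higher and lower at day 11, and shares 1.75%, 0.685% and 0.962%. With at least 4, 181, 295 and 977 were higher, 182 (MF_SS) and 290 (MF_MI) lower, 448 and 699 at day 11, and shares 1.13%, 0.428% and 0.623%. With both genes required, 230 (MF_MI) and 805 (MF_DC) were higher, 89 (MF_SS) and 166 (MF_MI) lower, 280 higher at day 11, and shares 1.81%, 0.749% and 0.509%. With the gate set after thinning to 3000 UMIs, 771, 692 and 892 were higher, 984 (MF_SS) and 663 (MF_MI) lower, 1037 and 1024 at day 11, and shares 0.736%, 0.327% and 0.815%. With members under the macrophage C1q share divided by 5, 2882 (MF_SS) and 927 (MF_MI) were higher, 1342 and 1146 lower, 1358 and 3370 at day 11, and shares 0.396% and 0.321%. Divided by 2, these were 1721 and 738, 1039 and 710, 1070 and 1962, and 0.679% and 0.428%. Divided by 10, they were 3202 and 975, 1804 and 1187, 1523 and 3757, and 0.170% and 0.278%. Without members marked for another type, 803 were higher in MF_DC, 102 lower in MF_MI, and the share in MF_DC was 0.962%. A minimum of 5 CPM gave 467, 375 and 858 higher, 321, 444 and 2190 lower, and 605 and 1248 at day 11. A minimum of 50 CPM gave 49, 61 and 184 higher, 9, 11 and 437 lower, and 53 and 92 at day 11. The mean of per-cell CPM gave 259 (MF_SS) and 217 (MF_MI) higher and 92 and 111 lower. CPM without mitochondrial and ribosomal protein genes gave 614 higher in MF_DC and 79 lower in MF_MI.

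Of 618 recomputed ratios of named genes, member numbers and shares of cells, 457 stayed within the counting interval of the reported value (for member numbers, within 1.5 times), 151 moved and 10 changed direction. Those 10 were log2 ratios of day 11 over steady state. At a C1q share divided by 2, Cxcl10 was at -3.10, Gna15 at 1.54, Ifitm1 at -1.78 and Sult1a1 at 0.22. With the thinned gate, Gna15 was at 0.67, Ifitm1 at -0.33 and Smc4 at 0.26. Fn1 was at -1.72 with the share divided by 5 and at -2.26 divided by 10, where Spp1 was at -0.087. At both settings the Fn1 UMIs of MF_SS were all in cells marked for another type. Several settings change both which cells are members and how many, and the cause of these changes was not tested.

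Each group was 1 library, which leaves no replicate to omit and no measure of differences between animals. No paired analysis was possible because each group has 1 library. Depth limits the C1q-low members most, at 5 cells in MF_SS. The gate needs 2 UMIs, so shallow cells with few Ace or Treml4 molecules were missed.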
